A study of Mus musculus with 11 samples.

Results

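The transcripts of 10 mouse genes for enzymes that remove or add methyl groups on the H3K9 residue of histones were measured by RNA-seq in differentiating fat cells. The demethylases were the JMJD1 family members Kdm3a, Kdm3b and Jmjd1c and the KDM4 family members Kdm4a and Kdm4c. The methyltransferases were Ehmt1, Ehmt2, Setdb1, Suv39h1 and Suv39h2. The genes were chosen by symbol, and each was read from its sense-strand row flagged as the representative transcript, so that 10 of the 29955 gene symbols in the tables are described, and all 10 passed the minimum FPKM used for the tests. FPKM, the mapped fragments of a transcript scaled to its exon length and to the depth of the sample, was used for all levels below.

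The cells were im-scWAT preadipocytes, which came from the inguinal subcutaneous white fat of mice and were immortalized with large T antigen. In a time course of 6 untransduced samples, RNA was taken at days 0, 4 and 8 of differentiation in cultures with rosiglitazone (ROS, a PPARγ ligand, 0.5 μM) or without it, with 1 sample for each day and each arm. ROS entered with the induction medium, so the 2 samples of day 0 had not been treated differently, and it was present at day 4. Whether it was still in the medium on the last day before the harvest of day 8 is not settled, since the sample labels give a switch to medium without ROS unless otherwise stated, whereas the study's methods keep it in the medium of these immortalized cells throughout. In 5 further samples at day 8 with ROS, cells had been transduced with a retrovirus for a U6-driven short hairpin RNA against mouse Jmjd1a (the gene listed as Kdm3a), selected, transduced again with a viral LTR-driven human JMJD1A, and selected again. The human protein was wild type in 2 samples (WT A and WT B), and S265A, S265D or the double mutant S265D-H1120Y in 1 sample each. All groups share the large T antigen. All but the samples of day 0, which were taken at confluence, received the induction cocktail of indomethacin, dexamethasone, isobutylmethylxanthine, insulin and T3. No sample carried a control hairpin or the hairpin alone, and the cells were a cultured line, not fat tissue.

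Methylated H3K9 is a mark of silent chromatin. EHMT1 and EHMT2 (GLP and G9a) act as a pair that writes mono- and dimethylation in euchromatin, SETDB1 writes trimethylation at silenced genes and retroelements together with the corepressor TRIM28, and the SUV39H enzymes write trimethylation in heterochromatin, where HP1 proteins bind it. JMJD1 enzymes remove mono- and dimethylation and KDM4 enzymes remove trimethylation. JMJD1A is known in fat cells for its part in the expression of thermogenic genes, and the serine that S265A and S265D replace is a site phosphorylated by protein kinase A.

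Mouse Kdm3a lies on the minus strand of chromosome 6, and its representative transcript spans 71538966 to 71582899 in mm9. The stretch around the mouse codon with the same number as the residue changed in S265A and S265D is shown because these constructs alter that residue in the human protein, whose sequence is not analysed here. It comes from the reference genome at chr6:71569973-71570029 and is read 5′ to 3′ on the minus strand with this codon, a serine codon, in capitals. In a transcript of the gene from the GENCODE annotation, not the representative one, it lies in exon 9 of 27.
Kdm3a: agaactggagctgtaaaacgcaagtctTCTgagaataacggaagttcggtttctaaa

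The 250 bases before the start of Suv39h2 and of Setdb1 are shown because these genes were the ones among the 10 that passed the test for a change with differentiation. They are from RefSeq on GRCm38.p6, in which 9 of the 10 genes matched a promoter (Kdm3b did not), with 15 starts in all. The Suv39h2 stretch is chr2:3474987-3475236 and that of Setdb1 is chr3:95357203-95357452, both on the minus strand. Capitals mark matches on either strand to TTTNNCGC (an E2F type motif), CCAAT, TGACGTCA (the cAMP response element) or the direct repeat DR1, which PPARγ binds with RXR.
Suv39h2: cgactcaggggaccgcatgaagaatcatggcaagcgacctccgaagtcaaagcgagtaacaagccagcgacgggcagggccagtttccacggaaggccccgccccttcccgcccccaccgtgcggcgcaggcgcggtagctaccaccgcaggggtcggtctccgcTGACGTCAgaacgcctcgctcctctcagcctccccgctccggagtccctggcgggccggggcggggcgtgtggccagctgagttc
Setdb1: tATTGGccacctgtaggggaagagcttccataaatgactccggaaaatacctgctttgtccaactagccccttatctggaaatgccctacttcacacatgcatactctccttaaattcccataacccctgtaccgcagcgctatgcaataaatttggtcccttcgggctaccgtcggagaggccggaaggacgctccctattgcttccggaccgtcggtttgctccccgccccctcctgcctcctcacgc

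The stretch of Suv39h2 holds TGACGTCA, which was found in 1.55% of the 32851 mouse promoter stretches of the same length. That of Setdb1 holds CCAAT on the opposite strand, which was found in 33.8% of them. TTTNNCGC, found in 4.28%, was present before 1 start of Suv39h1, and DR1, found in 0.0335%, before none of the 15 starts. A match describes the letters only.

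Each sample had between 3.10 and 5.29 Gb of mapped bases, and the lowest value among the 10 genes (Suv39h2 in S265A) rested on 8349 mapped bases. Adipocyte markers rose in all 5 cases by day 4, and their summed FPKM went from 268 and 269 at day 0 to between 8915 and 33344 at days 4 and 8. Of 5 preadipocyte markers, Pdgfrb, Dlk1 and Gata2 fell and Pdgfra rose at both days (limma), and Cd34 was below both samples of day 0 in every later sample of the time course without passing (adjusted p = 0.0905 at day 8). Emr1 of macrophages, Ptprc of blood cells and the muscle genes Myod1 and Myog were listed at 0 in all 11 samples. Cdh5 of endothelium did not exceed 0.010. Cd68, which macrophages express highly, was 0.541 to 4.30 in untransduced samples and 5.00 to 21.7 in transduced ones. Pecam1, the other endothelial marker, was 0.0526 to 0.263 in untransduced samples and 0.965 to 3.47 in transduced ones. Ratios past 2-fold were seen in 4.90% of expressed genes between the 2 samples of day 0, against 27.2% between WT A and WT B, so the wild-type pair was the less alike. In bulk RNA, fewer cells of a type and less RNA per cell cannot be told apart.

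The hairpin's target gene Kdm3a, the JMJD1A demethylase itself, was read at every day and in every transduced sample. In untransduced cells its FPKM was 23.2 and 20.9 at day 0, 15.1 with ROS and 15.8 without at day 4, and 21.1 with ROS and 16.0 without at day 8. In transduced cells it was 20.4 and 17.9 in WT A and WT B, 13.0 in S265A, 23.0 in S265D and 28.5 in S265D-H1120Y. Day 4 was thus below day 0 in both arms, the ROS sample of day 8 was back within the range of day 0, and the transduced samples lay on both sides of their untransduced counterpart, 3 of 5 below it. The fall by day 4 was estimated at -0.59 ± 0.20 on the log2 scale (SE, limma) and did not pass the test over all genes (adjusted p = 0.0798), while the estimate for day 8 was -0.34 ± 0.20 (adjusted p = 0.216). No loss of Kdm3a reads shared by the 5 samples with the hairpin was seen beside the untransduced ROS sample. Reads from the human coding sequence that also match the mouse gene cannot be told apart from its own. These values therefore do not measure the knockdown. By immunoblot and qPCR, the study reports an efficient depletion of the endogenous JMJD1A by the hairpin. It reports the human protein at a level comparable to that of the native one.

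**Figure D1:**
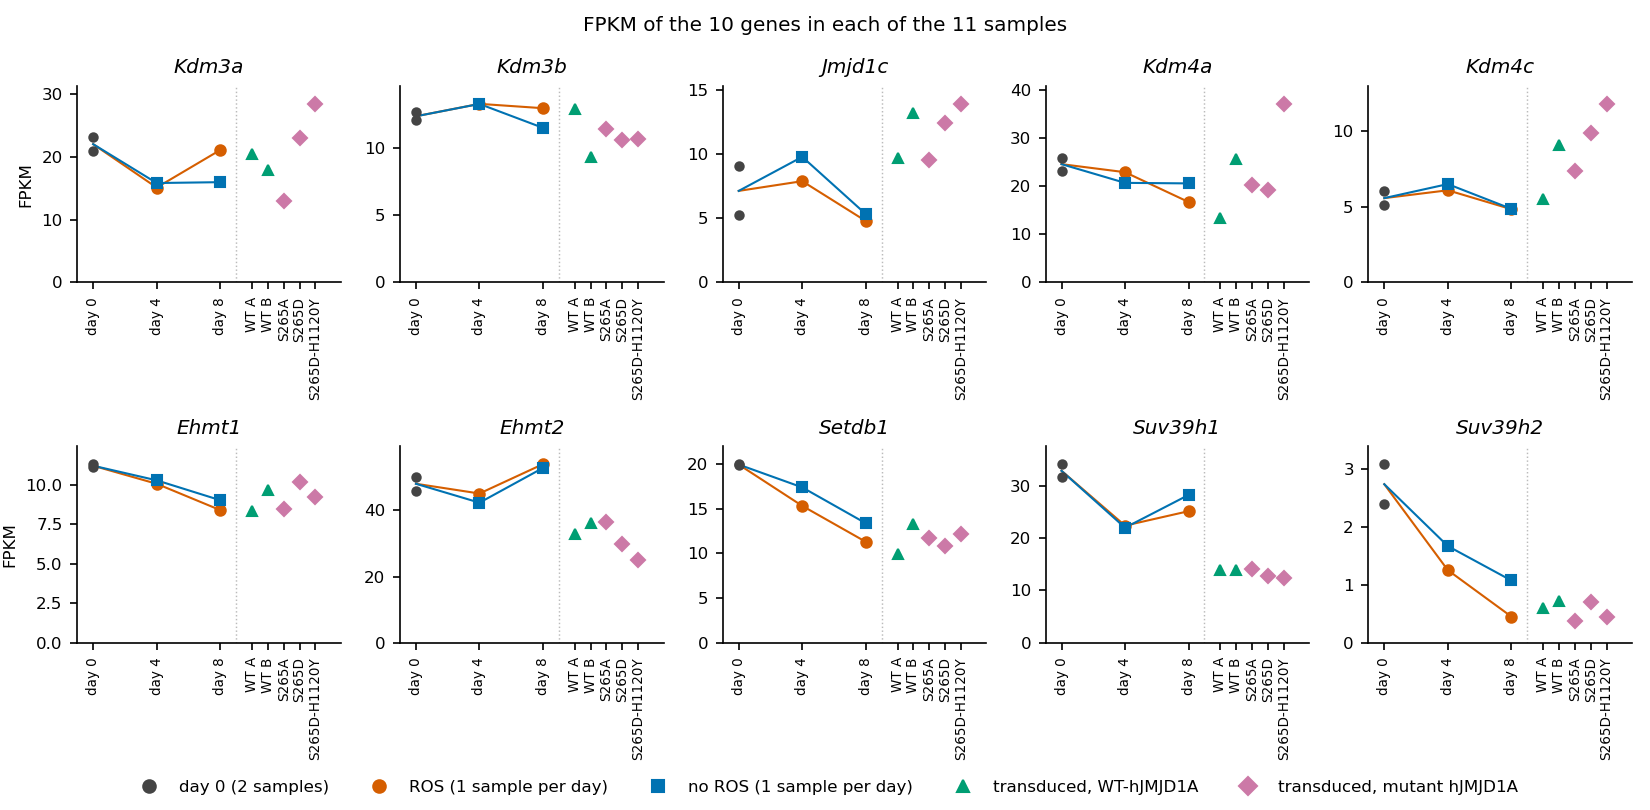
FPKM (vertical axes, each from 0) of the 10 genes in each of the 11 samples, with untransduced cells left of the dotted line by day and transduced cells at day 8 right of it; lines join the mean of day 0 to the ROS samples and to the samples without ROS. Setdb1 and Suv39h2 descend over the days in both arms, and Suv39h1 and Ehmt2 lie lower in all 5 transduced samples than in any untransduced one.

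Kdm3b, the closest relative of Kdm3a and also a demethylase of mono- and dimethylated H3K9, was the steadiest JMJD1 gene. Its FPKM was 12.6 and 12.0 at day 0, 13.3 in both samples of day 4, 12.9 with ROS and 11.5 without at day 8, and between 9.30 and 12.9 in transduced cells. Jmjd1c, the third family member, was 9.05 and 5.22 at day 0, so its samples of day 0 were 1.73-fold apart, the widest gap among the 10 genes. It was 7.90 with ROS and 9.79 without at day 4, and 4.79 and 5.33 at day 8. Both samples of day 8 lay below both of day 4, and the estimate of day 8 against day 4 was -0.79 ± 0.29 (adjusted p = 0.170), which did not pass. Kdm3a made up between 40.7% and 54.8% of the summed FPKM of the JMJD1 genes in untransduced cells, and between 38.4% and 53.7% in transduced cells.

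Kdm4a, a demethylase of trimethylated H3K9 and H3K36, was among the more abundant of the 10 genes. Its FPKM was 23.2 and 25.9 at day 0, 22.9 with ROS and 20.6 without at day 4, and 16.7 and 20.5 at day 8, where the ROS sample was the lowest of the 6. Kdm4c, of the same family, was 6.01 and 5.11 at day 0, 6.08 and 6.49 at day 4 and 4.83 and 4.85 at day 8. Neither gene passed the test for any day, and the estimates of day 8 against day 0 were -0.36 ± 0.19 for Kdm4a and -0.17 ± 0.17 for Kdm4c.

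Of the methyltransferases, Ehmt2 (G9a) had the highest FPKM of the 10 genes in every untransduced sample. It was 46.0 and 50.1 at day 0, 45.1 with ROS and 42.3 without at day 4, and 54.0 and 52.9 at day 8, so that both samples of day 8 exceeded the rest, while the estimate of day 8 against day 0 was only 0.12 ± 0.15 (adjusted p = 0.536). Ehmt1 (GLP), its partner, had 11.1 and 11.3 at day 0, 10.0 and 10.3 at day 4 and 8.39 and 9.01 at day 8. Its levels descended in both arms without overlap between days, but the estimate of -0.33 ± 0.14 at day 8 did not pass (adjusted p = 0.132). In untransduced cells, Ehmt2 made up between 41.2% and 54.4% of the summed FPKM of the 5 methyltransferases.

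Setdb1, which acts with TRIM28 and ATF7IP, fell with differentiation. It was 19.9 and 20.0 at day 0, 15.3 with ROS and 17.4 without at day 4, and 11.3 and 13.4 at day 8. The days did not overlap, and within days 4 and 8 the ROS sample was the lower. Day 8 against day 0, which in this fit is the change in cells without ROS, was -0.59 ± 0.14 on the log2 scale (95% interval -0.97 to -0.21, adjusted p = 0.0325).

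Suv39h2, a writer of heterochromatic trimethylation, was the scarcest of the 10 genes and changed the most. Its FPKM was 3.09 and 2.40 at day 0, 1.26 with ROS and 1.67 without at day 4, and 0.452 with ROS and 1.08 without at day 8. The level descended from day to day in both arms and was lower with ROS on both days. Day 8 against day 0 was -1.44 ± 0.27 (95% interval -2.15 to -0.72, adjusted p = 0.0163). Antisense reads over Suv39h2, at an FPKM between 0.0307 and 0.113 in untransduced cells, took 9.32% of the sense and antisense sum in the ROS sample of day 8.

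Suv39h1, the other SUV39H enzyme, was about an order of magnitude more abundant at day 0, by a wider margin at day 8, and followed another course. It was 31.7 and 34.2 at day 0, 22.4 with ROS and 22.0 without at day 4, and 25.2 and 28.3 at day 8. Both later days lay below day 0, with day 4 the lowest. The change by day 4 was -0.53 ± 0.16 (adjusted p = 0.0614) and that by day 8 was -0.27 ± 0.16 (adjusted p = 0.230), and neither passed. The estimates of day 4 for Suv39h1 and Kdm3a passed under some other settings, among them a pseudocount of 1 (limma adjusted p = 0.0236 and 0.0440).

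**Figure D2:**
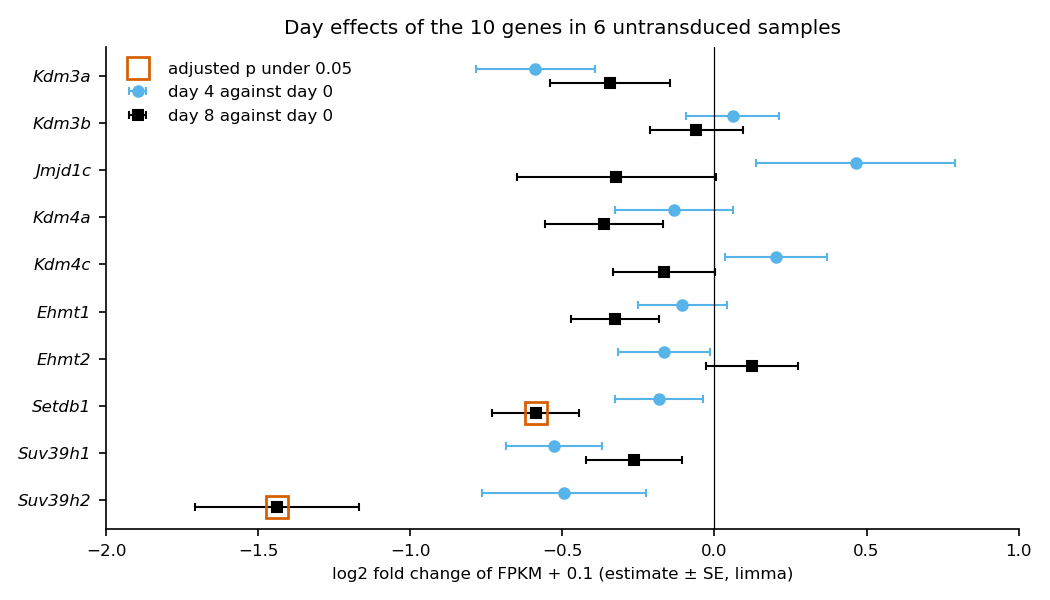
Log2 fold change of FPKM + 0.1 at day 4 and day 8 against day 0 (horizontal axis) for each of the 10 genes, as limma estimates with SE bars from 6 untransduced samples. The open squares mark the estimates with an adjusted p under 0.05, which are those of Setdb1 (-0.59) and Suv39h2 (-1.44) at day 8.

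In all, 2 of the 10 genes passed at day 8, both lower, where 42.9% of the 16400 genes tested passed in either direction and 19.0% passed as lower. At day 4, 0 of the 10 passed, against 35.3% of all genes, with 2 of the 10 at an unadjusted p under 0.05. For day 8 against day 4, 0 of the 10 and 0.854% of all genes passed, with 3 of the 10 (Jmjd1c, Setdb1 and Suv39h2) at an unadjusted p under 0.05. The median log2 change of the 10 genes at day 8 was -0.33, beside a median of 0.036 over all genes tested. Of the 10 estimates 9 were below 0, but all rest on the same 2 samples of day 0. Those of Kdm3a, Kdm3b and Jmjd1c changed sign in a fit that left out 1 sample. Both calls at day 8 were lost when either sample of day 0 or the sample of day 8 without ROS was left out, and that of Suv39h2 also without any other sample of the time course, with adjusted p up to 0.155 for Setdb1 and 0.0972 for Suv39h2. Proliferation markers moved beside them. Top2a (-1.35 ± 0.20, adjusted p = 0.0093) and Ccnb1 (-1.09 ± 0.16, adjusted p = 0.0087) fell by day 8, the other 3 of the 5 did not pass, and the summed FPKM of the list was 504 and 460 at day 0, 355 and 359 at day 4, and 272 with ROS and 341 without at day 8. The call of Top2a was lost in 5 of the 6 fits that left out 1 sample and that of Ccnb1 in 2. The part of proliferation in the changes of Setdb1 and Suv39h2 was not tested.

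At day 0 the levels ran in the order Ehmt2, Suv39h1, Kdm4a, Kdm3a, Setdb1, Kdm3b, Ehmt1, Jmjd1c, Kdm4c and Suv39h2. Within this order, Kdm4a overlapped with Kdm3a and Jmjd1c with Kdm4c, and the samples of the other neighbours did not overlap.

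Other genes of the pathway were read in the same fit. Of 7 other H3K9 demethylases, 2 rose and 1 fell by day 8, where 42.9% of all genes passed, so the share of the list was near that of all genes. Hr, the hairless demethylase, went from 0.295 and 0.324 at day 0 to 0.813 with ROS and 1.29 without at day 8 (log2 change 1.56 ± 0.26, adjusted p = 0.0125). Kdm4b, the remaining broadly expressed KDM4 gene, rose from 9.56 and 10.7 to 15.5 and 16.8 (0.69 ± 0.16, adjusted p = 0.0286). Kdm1a (LSD1), which removes mono- and dimethylation by another chemistry, fell from 40.0 and 40.3 to 14.9 and 17.9 (-1.20 ± 0.15, adjusted p = 0.0064), so its samples of day 8 lay far below both samples of day 0, and it had passed as lower at day 4 (-0.78, adjusted p = 0.0210). Jhdm1d (KDM7A) had 1.12 and 0.649 at day 0, 4.04 with ROS and 5.74 without at day 4, and 2.65 and 1.86 at day 8. It rose by day 4 (2.36 ± 0.40, adjusted p = 0.0150), but did not pass at day 8 (1.28 ± 0.40, adjusted p = 0.0590). Phf2, Phf8 and Kdm4d did not pass at either day.

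Of 4 other H3K9 methyltransferases, Mecom passed as higher at day 4 (1.32 ± 0.24, adjusted p = 0.0172) and at day 8 (0.97 ± 0.24, adjusted p = 0.0312) in its representative transcript. In the transcript with the highest mean FPKM its estimates turned to -0.53 (adjusted p = 0.0896) and -0.78 (adjusted p = 0.0310). At day 8 the 2 transcripts thus passed in opposite directions. Setdb2, a relative of Setdb1, passed at day 4 (0.75 ± 0.17, adjusted p = 0.0303) but not at day 8 (0.58 ± 0.17, adjusted p = 0.0502). Prdm2 and Prdm16 did not pass. Among 9 partners and readers, 2 passed at day 8, a smaller share than the 42.9% of all genes. The HP1 genes Cbx1 (-0.73 ± 0.15, adjusted p = 0.0207) and Cbx5 (-0.65 ± 0.16, adjusted p = 0.0323) fell by day 8, and their FPKM went from 44.0 and 40.9 to 24.9 and 25.9, and from 66.5 and 59.3 to 39.9 and 39.3. Trim28, the corepressor that recruits SETDB1, fell by day 4 (-0.69 ± 0.18, adjusted p = 0.0467) and at day 8 had an estimate of -0.58 ± 0.18 (adjusted p = 0.0611). Of 7 demethylases of other lysines, 2 passed. Kdm6b, which acts on H3K27, rose (0.56 ± 0.15, adjusted p = 0.0397), and Kdm2a, which acts on H3K36, fell (-0.57 ± 0.15, adjusted p = 0.0422). In the representative transcripts, all of these calls at day 8, and all at day 4, were lost when either sample of day 0 was left out. Those of Kdm4b, Cbx5 and Kdm2a at day 8 and of Jhdm1d and Setdb2 at day 4 were lost whichever of the 6 samples was left out, with adjusted p from 0.0567 to 0.248. At day 8 those of Hr, Cbx1 and Kdm6b were lost also without the sample of day 8 without ROS, and at day 4 those of Kdm1a, Mecom and Trim28 without the sample of day 4 without ROS.

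**Figure D3:**
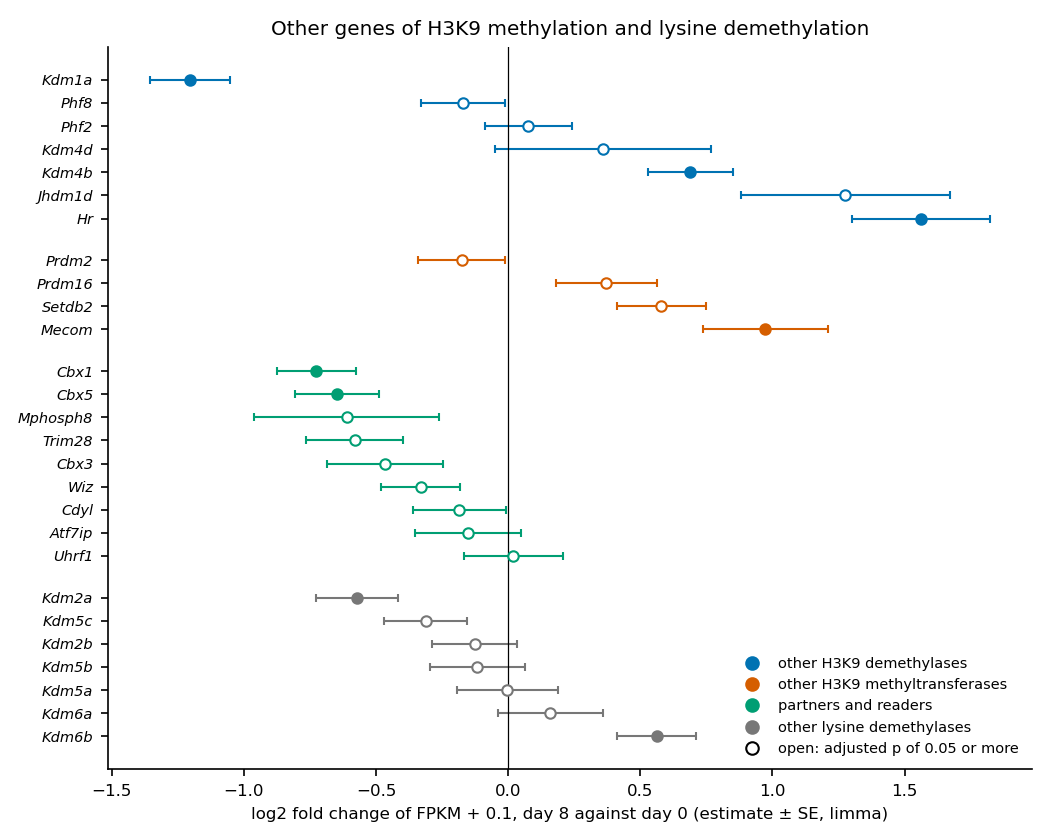
Log2 fold change of FPKM + 0.1 at day 8 against day 0 (horizontal axis, limma estimate with SE bars, 6 untransduced samples) for 27 other genes in 4 lists. Filled points passed at an adjusted p of 0.05. They are Hr, Kdm4b, Mecom (in its representative transcript) and Kdm6b above 0 and Kdm1a, Cbx1, Cbx5 and Kdm2a below 0.

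ROS was compared with its absence at days 4 and 8. In limma, 0 of the 10 genes and 0% of the 16400 tested passed, although 2901 genes and 1 of the 10 had an unadjusted p under 0.05. That gene was Suv39h2, with an estimate of -0.74 ± 0.24 (adjusted p = 0.254). A second fit gave each day and arm its own mean, with 1 sample in each group after day 0. Its spread rested on the 2 samples of day 0 alone, with 1 residual degree of freedom. It does not measure the spread between cultures at days 4 and 8, so only effect sizes are taken from it. By ratios of single samples, Suv39h2 at day 8 was the only one of the 10 past 2-fold, at 0.419, where 19.2% of expressed genes were past 2-fold and 15.2% were at most 0.5. At day 4 its ratio was 0.751 and 0 of the 10 genes were past 2-fold, against 6.70% of expressed genes. Kdm3a had ratios of 0.955 at day 4 and 1.32 at day 8. In the second fit its log2 ROS effect was 0.40 at day 8, and the difference between the days was 0.47. The other 8 genes had ratios between 0.806 and 1.13 on both days. With 1 sample for each day and arm, these ratios have no replicate check.

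In the transduced cells, levels of the 10 genes were compared between WT-hJMJD1A and the S265A and S265D mutants, and between S265D and S265D-H1120Y, to ask whether the phosphorylation site and the demethylase activity of JMJD1A bear on gene levels. Limma found 0 of 16402 genes in each comparison, with 107 for S265A, 99 for S265D and 187 for S265D-H1120Y at an unadjusted p under 0.05 and 0 of the 10 among them. A fit over all 11 samples also found 0, with 587, 479 and 941. The spread rested on WT A and WT B alone, with 1 residual degree of freedom, so little could pass. By the 2-fold rule 0 of the 10 genes passed in any of these comparisons, where 3.41% of expressed genes were at least 2-fold higher and 7.55% at least 2-fold lower for S265A over WT, 4.02% and 5.56% for S265D over WT, and 5.62% and 8.66% for S265D-H1120Y over S265D.

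Kdm4a varied most among the transduced samples. Its FPKM in WT A and WT B was 13.5 and 25.6, and the mutants had 20.2 (S265A), 19.1 (S265D) and 37.0 (S265D-H1120Y). WT A and WT B were 1.91-fold apart, and S265D-H1120Y was 1.94-fold above S265D, a difference as large as that within the wild-type pair (0.95 ± 0.70, 95% interval -1.32 to 3.23). Kdm4c, also highest in S265D-H1120Y and lowest in WT A, had 5.51 and 9.05 in WT A and WT B, 7.35 in S265A, 9.83 in S265D and 11.8 in S265D-H1120Y.

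For Kdm3a, S265A was 0.679 times the WT mean and S265D was 1.20 times. The S265A value lay below both wild-type samples and the S265D value above both, and the estimates were -0.55 ± 0.40 and 0.27 ± 0.40 on the log2 scale, with a 95% interval of -1.83 to 0.73 for S265A. Suv39h2 was 0.601 and 0.719 in WT A and WT B, 0.368 in S265A, 0.699 in S265D and 0.439 in S265D-H1120Y. S265A and S265D-H1120Y were thus below both wild-type samples, with ratios of 0.558 to WT and 0.628 to S265D and estimates of -0.69 ± 0.40 and -0.57 ± 0.46. Antisense reads took between 8.26% and 22.7% of the sense and antisense sum of Suv39h2 in these samples, against 1.65% to 9.32% in untransduced ones.

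Jmjd1c was 9.74 and 13.2 in WT A and WT B, 9.55 in S265A, 12.5 in S265D and 13.9 in S265D-H1120Y. Setdb1 was 9.92, 13.3, 11.7, 10.9 and 12.2 in the same order, with all 3 mutants between the wild-type samples. Ehmt1 lay between 8.34 and 10.2 in the 5 samples. Kdm3b was between its wild-type values of 12.9 and 9.30 in every mutant.

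Ehmt2 was 32.8 and 36.3 in WT A and WT B, 36.6 in S265A, 30.0 in S265D and 25.1 in S265D-H1120Y, which was the lowest of all 11 samples. Suv39h1 was 13.8, 14.0, 14.2, 12.7 and 12.5 in that order, and its wild-type samples were closer than those of any other of the 10 genes, at a ratio of 1.01. In all, 5 of the 10 genes lay outside the range of WT A and WT B in S265A, 5 in S265D and 7 in S265D-H1120Y, against 46.7%, 44.1% and 58.5% of expressed genes, so the shares of the 10 genes were near those of all genes.

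**Figure D4:**
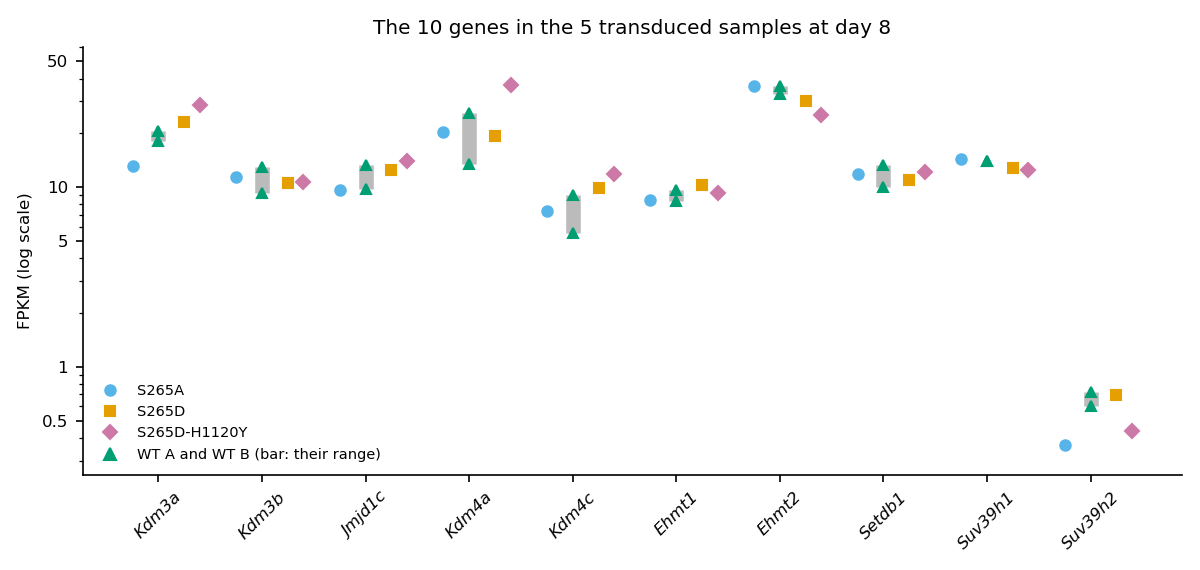
FPKM (vertical axis, log scale) of the 10 genes in the 5 transduced samples at day 8 with ROS, 1 point per sample, with a grey bar from WT A to WT B. The bar is longest for Kdm4a (13.5 to 25.6) and shortest for Suv39h1 (13.8 to 14.0).

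The transduced and the untransduced samples are separate experiments that differ in the hairpin, the human cDNA, the selections and any difference in culture, which cannot be told apart, so their values are set side by side only. Ehmt2 had 42.3 to 54.0 in the 6 untransduced samples and 25.1 to 36.6 in the 5 transduced ones. Suv39h1 had 22.0 to 34.2 and 12.5 to 14.2. These were the 2 of the 10 genes whose ranges did not overlap, both lower in transduced cells, where 11.5% of expressed genes did not overlap and 6.89% were lower. The untransduced samples span days 0, 4 and 8 with and without ROS, whereas the transduced ones are all of day 8 with ROS. Beside the untransduced ROS sample of day 8 alone, Ehmt2, Suv39h1 and, narrowly, Kdm3b (12.94 against 9.30 to 12.90) were lower in all 5 transduced samples. Jmjd1c (4.79 against 9.55 to 13.9) and Kdm4c (4.83 against 5.51 to 11.8) were higher in all 5. The share of all genes that did so is not given here. The summed FPKM of the 5 methyltransferases over that of the 3 JMJD1 genes lay between 2.41 and 3.19 in untransduced and between 1.12 and 2.10 in transduced samples. This ratio includes Ehmt2 and Suv39h1, the 2 genes named above for not overlapping, so its gap is not a separate result. It also has no counterpart over all genes. Its lower term includes Kdm3a, the hairpin's target, whose own reads cannot be told apart from matching reads of the human coding sequence. Summed proliferation markers were 180 to 219 in transduced cells, below the 272 of the untransduced ROS sample at day 8. Of the list, Mcm2 and Cdk1 were lower than in that sample in all 5 transduced samples, and the rest lay on both sides of it. Mki67 was 10.5 in that sample and 9.55 to 16.8 in transduced ones, Top2a 46.9 and 29.1 to 48.7, and Ccnb1 38.5 and 18.2 to 42.9. The part of the difference in proliferation markers was not tested.

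Kdm3a also has a shorter transcript in the tables, uc009chb.1, at chr6:71552737-71571668 with 3137 exon bases, which shares part of its exons with the representative transcript uc009cgz.2 of 4816 exon bases. The FPKM of the shorter over the representative transcript was 0.457 and 0.444 at day 0, 0.538 with ROS and 0.515 without at day 4, and 0.485 and 0.480 at day 8. It was 0.322 and 0.388 in WT A and WT B, 0.335 in S265A, 0.373 in S265D and 0.383 in S265D-H1120Y. All 5 transduced samples were below all 6 untransduced ones. Such ratios were taken only for genes whose representative transcript had an FPKM of at least 1 in every sample, which left out Suv39h2. Among 24 such transcripts of the other 9 genes, this was the 1 whose ratio did not overlap, against 4.08% of the 14764 transcripts compared. The share of these transcripts was thus near that of all. The part of the human cDNA and of the hairpin in this ratio was not tested.

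**Figure D5:**
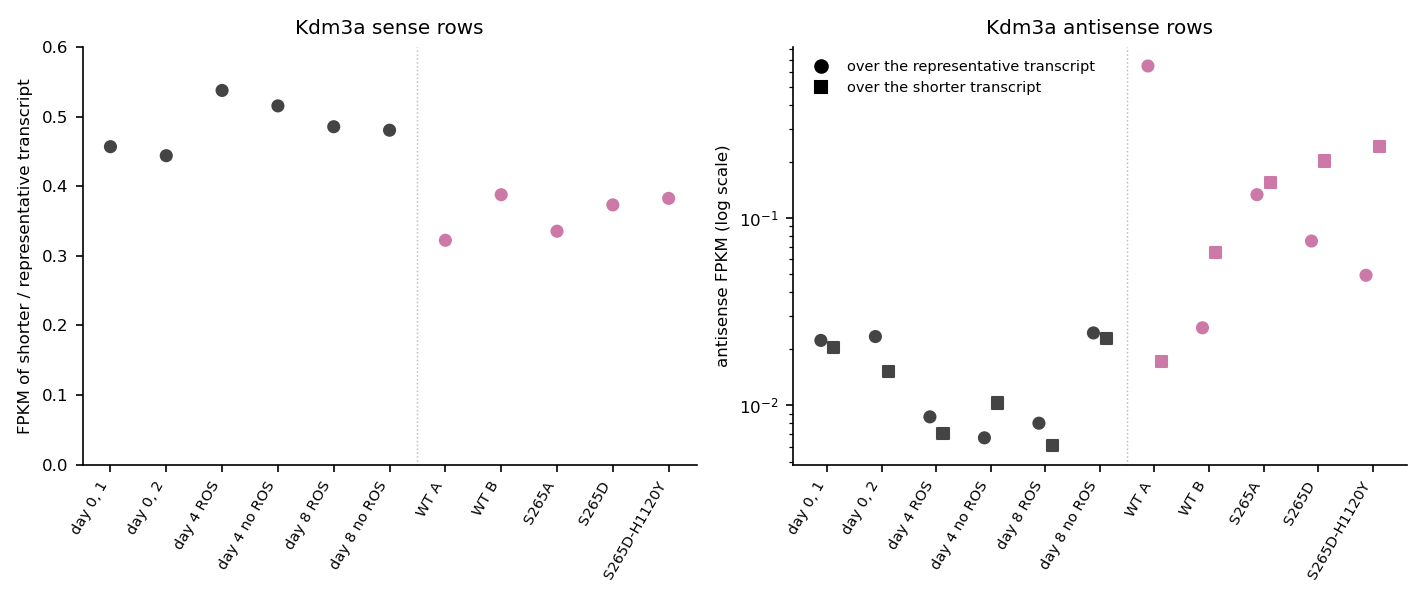
Left, FPKM of the shorter Kdm3a transcript divided by that of the representative one in each of the 11 samples; right, antisense FPKM (log scale) over the same transcripts, with untransduced samples in grey and transduced samples in pink. The ratio is 0.444 to 0.538 in untransduced and 0.322 to 0.388 in transduced samples, and the antisense FPKM reaches 0.648 in WT A.

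The genes whose pattern was most like that of Kdm3a over the 11 samples were mKIAA0092, Bag2 and Cep57, with root mean square differences of 0.218, 0.219 and 0.220 on the centred log2 scale, while Kdm3a itself varied around its mean by 0.314. mKIAA0092 and Cep57 are listed at the same position of chromosome 9 and share reads. For Suv39h2, the gene with the widest range (8.40-fold), they were Bahcc1, Nqo2 and Arhgap31, at 0.190, 0.262 and 0.271 beside its own 0.886. Bahcc1 had an FPKM of 7.95 and 7.54 at day 0, 2.16 with ROS and 3.02 without at day 8, and between 1.39 and 2.36 in the transduced samples.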

How the data were processed

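The tables of 11 im-scWAT samples were used as deposited. The authors sequenced TruSeq libraries, mapped the reads to the mouse build mm9 and its UCSC transcripts by Burrows-Wheeler aligner, and calculated FPKM for each strand without pooling samples. The deposited FPKM of the representative sense row was used for each gene, and the deposited coverage signal (mapped bases) gave the depth of 3.10 to 5.29 Gb per sample. These are not counts of reads, so no test for counts was run. Deposited log-transformed columns were not used.

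Tests were run with limma 3.58.1 in R 4.3.3 on log2(FPKM + 0.1), which understates the change of low genes, leaving out genes that stayed under an FPKM of 0.1 in all samples of the fit, with Benjamini-Hochberg adjustment at 0.05. The time course was fitted with day and ROS as additive terms (2 residual degrees of freedom), with ROS absent at day 0, so a day effect is that of cells without ROS. Transduced samples were fitted by group. Ratios past 2-fold used neither pseudocount nor test. The scripts were tested on simulated data. The genes named are the 10 genes, 27 related genes in 4 lists, markers of proliferation and cell types, and the 3 genes most like Kdm3a and most like the widest-ranging gene; genes and lists were chosen with earlier results of these data known. No label says that samples of a group came from separate cultures, so p-values measure the spread between these samples, which may be technical. Alternatives changed the pseudocount, the minimum FPKM, the transcript, the scaling, the variance prior, the model terms and the samples.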

Additional observations from a re-analysis of the deposited data

Results flagged for a closer look

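Antisense rows of Kdm3a, which no comparison above uses, had a signal above the highest untransduced sample in all 5 transduced samples over the representative transcript and in 4 of the 5 over the shorter one. Over the representative transcript the antisense FPKM was 0.648 in WT A, 0.133 in S265A, 0.0753 in S265D, 0.0494 in S265D-H1120Y and 0.0259 in WT B, against 0.00669 to 0.0243 in the 6 untransduced samples. In WT A it rested on 11559 mapped bases and made up 3.08% of the sense and antisense sum, so WT A stood far above WT B. Over the shorter transcript the order was another, with 0.241 in S265D-H1120Y, 0.201 in S265D, 0.155 in S265A, 0.0650 in WT B and 0.0170 in WT A, against 0.00608 to 0.0227 in untransduced samples. WT A, the highest over the representative transcript, was thus within the untransduced range over the shorter one. For each of the other 9 genes, the highest antisense FPKM in transduced cells was at most 1.82 times the highest in untransduced cells. Over the representative transcript of Kdm3a, WT B exceeded the untransduced samples only narrowly. How many antisense rows of all genes show such a pattern is not given here, so how unusual it is remains unknown. The cause was not tested.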

How the results depend on the processing

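The limits of these data are the number of samples, with 1 sample for most conditions, and the wide gap between WT A and WT B. The groups share no replicate numbers, but the labels place each sample of day 0 in the series with or without ROS. A fit with this series as replicate block, added after seeing the data, passed 5523 genes and 0 of the 10 at day 4, 6988 and the same 2 of the 10 (Setdb1 and Suv39h2) at day 8, and 0 genes for day 8 against day 4. The block holds the ROS difference too. Of the calls named above it changed that of Mecom (adjusted p = 0.0536 at day 4 and 0.126 at day 8).

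Of the 10 genes, 1 passed at day 4 with a minimum FPKM of 1, upper quartile scaling or day alone in the model, and 2 passed with a pseudocount of 1 or a mean-dependent prior variance. Suv39h1 passed in each of these fits, and Kdm3a in the last 2, both lower. Leaving out 1 sample gave 0 to 1 of the 10 at day 8, and 0 to 4974 (0 without the sample of day 4 without ROS), 1730 to 5743 and 0 to 0 of all genes for day 4, day 8 and day 8 against day 4. The last was 140 genes in the fit as reported, and 1366 with a pseudocount of 1, 0 with no minimum FPKM, 592 with a minimum of 1, 91 with the transcript of the highest mean, 1389 with a mean-dependent prior and 18 with day alone.

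Genes past 2-fold with a minimum FPKM of 1 and with a pseudocount of 1 were 1529 and 851 for ROS at day 8, 174 and 39 at day 4, 89 and 9 for day 0, 584 and 210 for S265A, 459 and 189 for S265D, 957 and 504 for S265D-H1120Y, and 2521 and 1574 for WT B over WT A. With 1 WT sample they were 2045 to 2984 for S265A and 1518 to 3283 for S265D. Suv39h2 at day 8 was no longer past 2-fold with a pseudocount of 1, which left 0 of the 10, and Kdm4a in S265D-H1120Y passed with the transcript of the highest mean, which gave 1 of the 10.

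Some estimates changed sign. With the transcript of the highest mean, Mecom turned to -0.53 at day 4 and -0.78 at day 8, where it passed as lower (limma adjusted p = 0.0310). With upper quartile scaling, the ROS estimates became 0.016 for Kdm4a, 0.041 for Kdm4c, 0.025 for Ehmt1 and 0.022 for Suv39h1. Leaving out 1 sample gave ranges across 0 at day 4 for Kdm3b (-0.068 to 0.10), Kdm4a (-0.25 to 0.20) and Suv39h2 (-0.67 to 0.035), at day 8 for Jmjd1c (-0.71 to 0.068), Kdm3a (-0.46 to 0.0063) and Kdm3b (-0.10 to 0.068), and for ROS for Kdm3a (-0.067 to 0.40), Kdm4a (-0.30 to 0.15) and Suv39h1 (-0.17 to 0.026). Leaving out WT A or WT B did so in S265A for Kdm4a (-0.34 to 0.58), Kdm4c (-0.30 to 0.41), Setdb1 (-0.18 to 0.24), Kdm3b (-0.18 to 0.29) and Ehmt1 (-0.19 to 0.014), and in S265D for Kdm3b (-0.29 to 0.18), Jmjd1c (-0.081 to 0.35), Kdm4a (-0.43 to 0.50), Suv39h2 (-0.035 to 0.19) and Setdb1 (-0.29 to 0.13). The causes were not tested.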
